A study of Saccharomyces cerevisiae with 4 samples.

Results

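The genes described here are 9 URA genes of budding yeast (Saccharomyces cerevisiae) and PPR1. The URA genes carry the cell from simple precursors to UTP and CTP, and PPR1 encodes a transcriptional activator of 4 of them. All 10 were chosen by name, as the rows of the deposited table named URA1 to URA8, URA10 or PPR1, and were found among 6697 genes. mRNA was measured by RNA sequencing in a wild type (WT) and in a strain, 9Myc-Swd2, in which an N-terminal tag of 9 Myc epitopes had been added to Swd2, with 2 libraries of each. Both strains grew at 30 °C in the rich glucose medium YPD to an OD600 of 1.0. Swd2 is a subunit shared by the histone methyltransferase complex COMPASS and the mRNA cleavage and polyadenylation factor. The design text calls the strains isogenic, and the labels name neither the strain background nor the URA3 allele.

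In the de novo pathway, Ura2 makes carbamoyl aspartate, Ura4 closes it to dihydroorotate, Ura1 oxidizes that to orotate, Ura5 or Ura10 adds the ribose phosphate and Ura3 removes a carboxyl group to give UMP. Ura6 then phosphorylates UMP, and Ura7 or Ura8 converts UTP to CTP. UTP inhibits Ura2 and lowers its expression, whereas URA1, URA3, URA4 and URA10 are switched on by Ppr1, a zinc cluster protein that senses pathway intermediates when pyrimidines run short. In rich medium cells also take up and salvage pyrimidines.

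Zinc cluster proteins such as Ppr1 bind inverted CGG triplets, and the letters CGGNNNNNNCCG were searched in the 300 bases before each start codon. The motif reads the same on both strands. It was present before URA1, at 2 places, and before URA3 and URA4, and so in 3 of the 10 genes. It was present in 77 of 6001 protein-coding genes with such a window, or 1.28%. The matches are shown because these genes share an activator but not, as described further on, a direction of change. Capitals mark the CGG and CCG triplets, and each line reads 5′ to 3′ on the strand of its gene, taken from the RefSeq R64 genome of strain S288C.
URA1, outer match, chrXI:24994-25023, plus strand: tttcttcacCGGgctttgCCGaaggttatt
URA1, inner match, chrXI:25025-25054, plus strand: cacgatcttCGGcattcgCCGaaaattttt
URA3, chrV:116006-116035, plus strand: tttttgattCGGtaatctCCGagcagaagg
URA4, chrXII:963646-963675, plus strand: ttcatcattCGGagaattCCGatgaatcgg
The motif began 212 and 181 bases before the start codon of URA1, 152 before that of URA3 and 130 before that of URA4. These letters were not in the windows of URA10, URA2, URA5, URA6, URA7, URA8 and PPR1. Letter matches are descriptions, and whether these strains carry the reference sequence there was not tested.

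Values are the authors' normalized read counts, that is reads divided by 1 size factor per library, and the libraries held between 7849193 and 8388090 reads assigned to genes. Fold changes compare 9Myc-Swd2 with WT, are positive where 9Myc-Swd2 was higher, and are given on the log2(normalized count + 1) scale, where the added 1 makes the changes of rarely read genes look smaller than they are. They were tested with limma-trend over all 6503 genes with a mean of at least 1, with Benjamini-Hochberg adjustment over those genes and a threshold of 0.05. The tagged gene, SWD2, had 343 ± 11.5 normalized counts in WT and 1025 ± 78.9 in the tagged strain (SD, n = 2). SWD2 lies on chromosome XI, whose genes had a median log2 fold change of 0.90 (interquartile range 0.70 to 1.11) over the 319 with a mean of at least 5 CPM. URA1 and URA6 lie on that chromosome and the other 8 genes do not. The leucine synthesis gene LEU2 had 26.9 ± 6.37 in WT and 2219 ± 79.3 in the tagged strain, so the strains differed at a gene often used as a selectable marker. Mating-type markers were read in both groups. Of the 4 a-cell genes looked at, the pheromone gene MFA1 rose from 16.8 ± 3.13 to 51.3 ± 5.60 (log2 fold change 1.56 ± 0.28, limma-trend adjusted p = 0.00021). The others did not pass, with the pheromone gene MFA2 at 25.4 ± 4.35 and 31.0 ± 3.22, the receptor gene STE2 at 142 ± 32.4 and 166 ± 9.82 and the protease gene BAR1 at 161 ± 25.3 and 155 ± 12.4. The alpha-cell receptor gene STE3, which lies on chromosome XI, was at 1919.7 ± 59.0 and 1802 ± 81.9 and did not pass (log2 fold change -0.09 ± 0.07). In both strains STE3 was read far above each of the 4 a-cell genes. The alpha side rests on STE3 alone, as the alpha-factor pheromone genes planned beside it yielded no values. The part of these differences between the strains in the results was not tested. In such bulk samples fewer cells of a type and less RNA per cell cannot be told apart. Nothing in the labels ties the 2 libraries of a strain to separate cultures. The p-values then reflect the spread among these samples alone, and that spread may be technical.

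The pathway did not change in one direction. URA2, URA1, URA6 and PPR1 were higher in 9Myc-Swd2, URA4, URA5 and URA3 were lower, and URA10, URA7 and URA8 did not pass the threshold. The 4 higher and 3 lower among 10 stand beside 22.3% higher and 21.4% lower among all genes tested, and 7 of 10 called in either direction beside 43.7%. The median log2 fold change was 0.15 over the 10 genes and 0.00106 over all genes tested. Both members on chromosome XI were higher, as were 90.6% of its tested genes. Off chromosome XI, 2 of 8 were higher and 3 lower, with a median of 0.05, where 18.5% of the other chromosomes' genes were higher and 22.6% lower. Of the 6 genes that lead to UMP, 2 rose and 3 fell, with a median log2 fold change of -0.02. Of the 4 that lead on to UTP and CTP, with YNK1 counted in, URA6 and YNK1 rose, both on chromosome XI, and 0 fell, with 0 falling at an unadjusted p under 0.05. Both 9Myc-Swd2 libraries lay above both WT libraries for 5 of the genes and below them for 3, beside 36.0% and 35.6% of all genes tested. The number of lower calls was 0 by limma-trend without WT 1, with 2 at an unadjusted p under 0.05, and it was 1 without WT 2. It was 3 with edgeR's quasi-likelihood test, which called 22.3% of all genes lower, 1 with DESeq2, which called 16.0%, and 1 in the authors' deposited table, which has 15.5% lower. Over all genes the calls split into 1448 higher and 1393 lower (51.0% higher), but into 1185 and 1721 (40.8%) when libraries were scaled to their total reads, where 4 of the 10 genes were still higher and 3 lower.

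**Figure D1:**
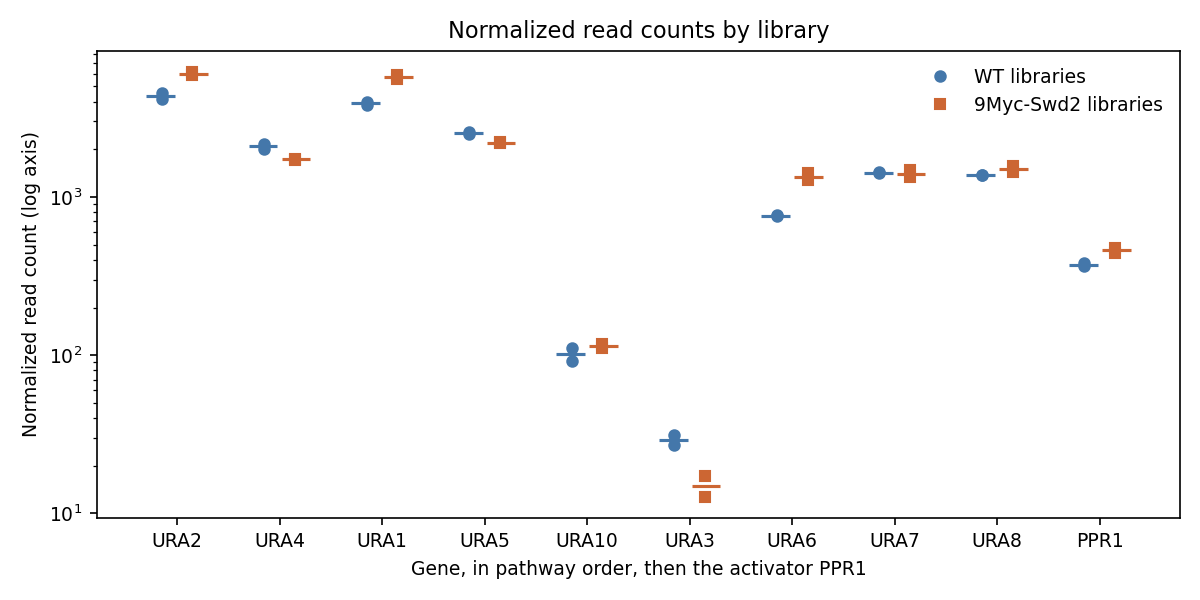
Normalized read counts (log axis) of the 10 genes in pathway order, with circles for the 2 WT libraries, squares for the 2 9Myc-Swd2 libraries and a bar at each mean. The groups separate upwards for URA2, URA1, URA6, URA8 and PPR1 and downwards for URA4, URA5 and URA3, and URA3 lies between 12.8 and 31.4.

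URA2, whose bifunctional product has carbamoyl phosphate synthetase and aspartate transcarbamylase activity and is the regulated entry to the pathway, rose. It lies on chromosome X (R64, 165723 to 172367, minus strand). Its normalized counts were 4504 and 4155 in WT and 6160 and 5856 in 9Myc-Swd2. Both tagged libraries were above both WT libraries. The log2 fold change was 0.47 ± 0.07 (SE), or 1.39-fold, with a limma-trend adjusted p of 4.74e-05, and it passed under all 15 alternatives tried, with log2 fold changes from 0.41 to 0.53. Of its 6 nearest annotated genes, 3 on each side, 2 rose and 1 fell, with log2 fold changes from -0.34 to 0.43. Among all genes off chromosome XI, 18.5% were higher and 22.6% lower.

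URA4, the dihydroorotase gene that acts on the product of Ura2, went the other way. It lies on chromosome XII (963785 to 964879, plus strand). Its normalized counts were 2158 and 2009 in WT and 1739 and 1710 in 9Myc-Swd2. The groups did not overlap, and the log2 fold change was -0.27 ± 0.07, or 0.83-fold, with a limma-trend adjusted p of 0.0035. It did not pass without WT 1 (limma adjusted p = 0.086) or with limma without a trend (0.057). Within a library the level of URA2 per kilobase was 0.344 and 0.341 times that of URA4 in WT and 0.584 and 0.564 times in 9Myc-Swd2. These ratios do not depend on the scaling between libraries. An exact permutation test of 2 libraries against 2 gave p = 0.33, the smallest that it can give.

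URA1, the dihydroorotate dehydrogenase gene, rose. The yeast enzyme is cytosolic and passes electrons to fumarate. It lies near the left end of chromosome XI (25215 to 26159, plus strand). Its normalized counts were 4000 and 3790 in WT and 5853 and 5522 in 9Myc-Swd2, with no overlap between the groups. The log2 fold change was 0.55 ± 0.07, or 1.46-fold, with a limma-trend adjusted p of 7.47e-06, and it passed under all 15 alternatives. That is 0.36 below the chromosome XI median on the log2 scale, and 46 of the 319 chromosome XI genes (14.4%) had a lower log2 fold change. Against the WT mean, the log2 level of URA1 was up by 0.59 and 0.50 in the tagged libraries, where the median of chromosome XI genes was up by 0.93 and 0.89. All 6 nearest genes rose, from SRY1, with a log2 fold change of 0.26, to OXP1, with 1.07, and their median was 0.54. Of all tested chromosome XI genes, 90.6% were higher. Per kilobase, URA1 was at 2.15 and 2.19 times the level of URA4 in WT and at 3.90 and 3.74 times in 9Myc-Swd2 (exact permutation p = 0.33). Both genes have Ppr1 as activator, and only URA1 lies on chromosome XI, whose median change was 1.87-fold. The part of either in the ratio was not tested.

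URA5 and URA10 encode the 2 orotate phosphoribosyltransferases, Ura5 being the major one. URA5 (chromosome XIII, 56773 to 57453, plus strand) was at 2497 and 2564 in WT and at 2221 and 2186 in 9Myc-Swd2. Its groups did not overlap, and its log2 fold change was -0.20 ± 0.07, or 0.87-fold (limma-trend adjusted p = 0.020). This call was lost without WT 1 (adjusted p = 0.087), without WT 2 (0.17), with limma without a trend (0.086) and with DESeq2 (0.055), and the authors' deposited table gives an adjusted p of 0.056. URA10 (chromosome XIII, 806865 to 807548, minus strand) was at 92.2 and 110.8 in WT and at 110.6 and 117 in 9Myc-Swd2, so the groups overlapped. Its log2 fold change was 0.17 ± 0.16 with a 95% interval of -0.16 to 0.50 (limma-trend adjusted p = 0.42). Per length, URA10 made up 3.55% and 4.13% of the summed level of the pair in WT and 4.72% and 5.06% in 9Myc-Swd2 (exact permutation p = 0.33). The reading frames share 68.9% of aligned positions, their longest identical run in the alignment is 11 bases, and they share 0 stretches of 50 bases.

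URA3, the gene of orotidine 5′-phosphate decarboxylase and a widely used selectable marker, was scarcely read in either strain. It lies on chromosome V (116167 to 116970, plus strand). Its normalized counts were 31.4 and 27.2 in WT and 12.8 and 17.1 in 9Myc-Swd2, which rest on 33 and 28 reads and on 12 and 17 reads. Per kilobase its WT level of 36.4 ± 3.65 was above that of 88 of 5957 genes with a position (1.48%), whereas URA5, which acts just before it, stood at 3716 ± 69.9. The 2 tagged libraries were below the 2 WT libraries, and the log2 fold change was -0.94 ± 0.32, or 0.52-fold (limma-trend adjusted p = 0.026). It did not pass without WT 1 (adjusted p = 0.21), without WT 2 (0.12) or without 9Myc-Swd2 1 (0.073), and in the authors' deposited table the log2 fold change is -0.97 and the adjusted p 0.17. Of its 6 nearest genes 0 passed with limma-trend, with 1 at an unadjusted p under 0.05, and 0 passed with edgeR or DESeq2. For all genes off chromosome XI, limma-trend called 18.5% higher and 22.6% lower. Its neighbours GEA2 and TIM9 were at 1160 ± 20.3 and 69.2 ± 2.98 in WT. The strain's URA3 allele was not analysed here.

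**Figure D2:**
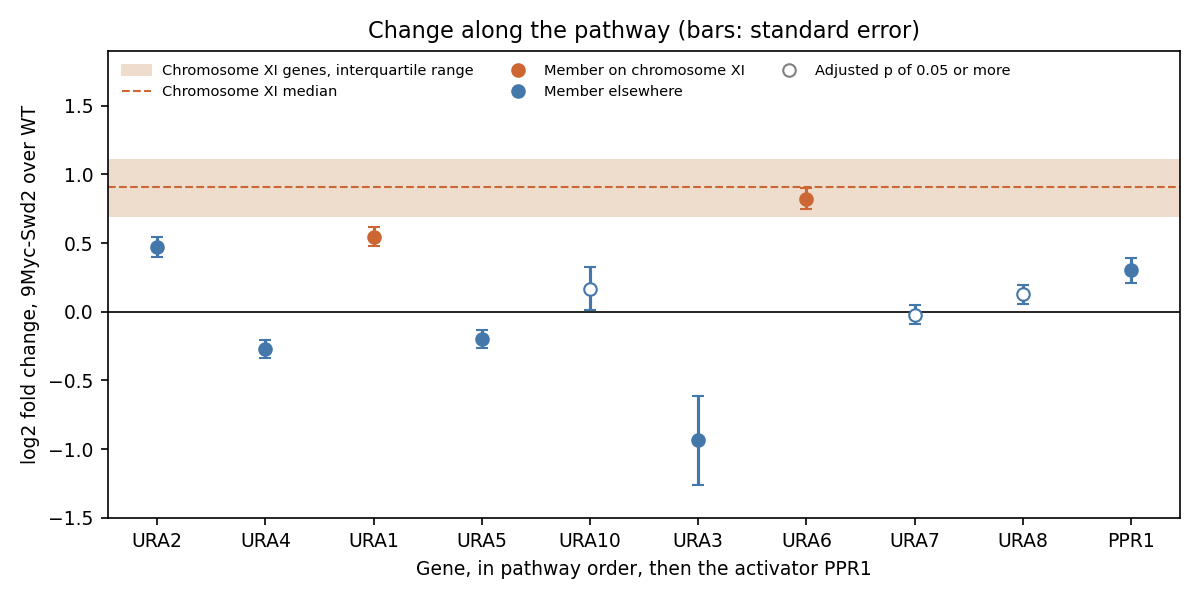
The log2 fold changes of 9Myc-Swd2 over WT with their standard errors, in pathway order, with filled points for an adjusted p under 0.05 and the median and interquartile range of chromosome XI genes as a dashed line and a band. URA6, at 0.82, lies inside the band and URA1, at 0.55, below it, while the genes elsewhere range from -0.94 (URA3) to 0.47 (URA2).

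URA6, the essential UMP kinase gene, had the largest rise of the 10. It lies on chromosome XI (392526 to 393140, minus strand). Its normalized counts were 763 and 754 in WT and 1281 and 1410 in 9Myc-Swd2. The groups were far apart, with a log2 fold change of 0.82 ± 0.07, or 1.77-fold (limma-trend adjusted p = 7.88e-08), and the gene passed under all 15 alternatives. It stood 0.08 below the chromosome XI median, with 123 of 319 genes (38.6%) lower. All 6 nearest genes rose, between log2 fold changes of 0.33 for TCD2 and 1.11 for CDC16, beside 90.6% of the tested genes of chromosome XI. YNK1, the nucleoside diphosphate kinase gene that acts next, is on the same chromosome and rose from 1597 ± 54.5 to 2751 ± 77.0 (log2 fold change 0.78 ± 0.07).

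**Figure D3:**
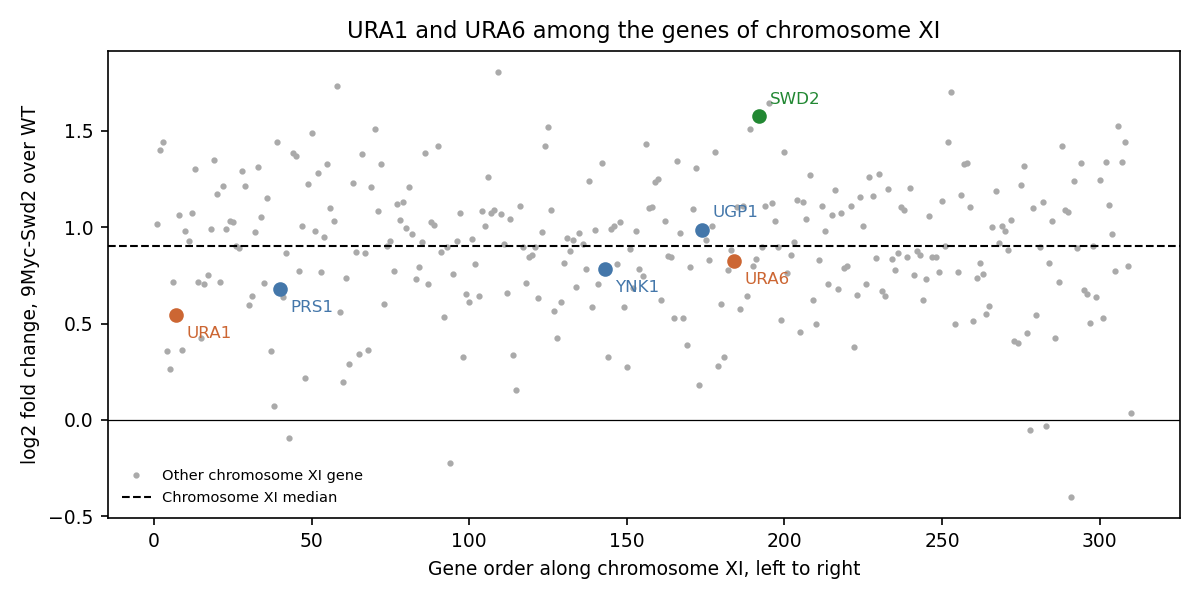
The log2 fold change of 310 chromosome XI genes with a RefSeq position and at least 5 CPM, by their order along the chromosome, with the chromosome median as a dashed line. URA1 is the 7th gene and lies at 0.55, and URA6 is the 184th and lies at 0.82, close to the median of 0.90.

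The CTP synthase genes URA7 and URA8, both off chromosome XI, were read at like levels and neither passed the threshold. URA7, on chromosome II (143989 to 145728, minus strand), was at 1411 and 1437 in WT and at 1338 and 1474 in 9Myc-Swd2. The WT values lay between those of the tagged libraries, and the log2 fold change was -0.02 ± 0.07 with a 95% interval of -0.17 to 0.13 (limma-trend adjusted p = 0.84). URA8, on chromosome X (620754 to 622490, plus strand), was at 1370 and 1368 in WT and at 1562 and 1432 in 9Myc-Swd2. Its groups did not overlap, but the log2 fold change of 0.13 ± 0.07 (95% interval -0.02 to 0.28) had an adjusted p of 0.15, and 0.038 without 9Myc-Swd2 2. Per length, URA8 made up 49.3% and 48.8% of the pair in WT and 53.9% and 49.3% in 9Myc-Swd2. The reading frames are identical at 71.8% of aligned positions and share 0 stretches of 50 bases.

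PPR1, on chromosome XII (172268 to 174982, minus strand), is known for a short-lived mRNA that nonsense-mediated decay degrades. Its normalized counts were 383 and 364 in WT and 442 and 479 in 9Myc-Swd2, with both tagged libraries above both WT libraries. The log2 fold change was 0.30 ± 0.09, or 1.23-fold (limma-trend adjusted p = 0.013). It did not pass without WT 1 (adjusted p = 0.051), without WT 2 (0.14), without 9Myc-Swd2 2 (0.057), with limma without a trend (0.054) or with DESeq2 (0.081), and in the authors' deposited table the log2 fold change is 0.30 and the adjusted p 0.083. By edgeR's quasi-likelihood test the adjusted p was 0.007. Of the 4 genes that Ppr1 is known to activate, URA1 rose, URA4 and URA3 fell and URA10 did not pass. Their median log2 fold change was -0.05. For comparison, limma-trend called 22.3% of its 6503 genes up and 21.4% down. URA1 lies on chromosome XI, where 90.6% of the genes rose, whereas elsewhere 18.5% rose and 22.6% fell. The call of URA3 rests on 12 to 33 reads per library, and the authors' deposited comparison gives it an adjusted p of 0.17. Of the 3 genes of the decay machinery itself (median log2 fold change -0.10), UPF3 fell from 2704 ± 190 to 1854 ± 49.3, and NAM7, which encodes the helicase Upf1, rose from 1133 ± 37.0 to 1384 ± 120. NMD2 was at 1940 ± 53.8 and 1810 ± 28.0 and did not pass. Among all genes tested, 43.7% were called in either direction. The rise of NAM7 was lost without WT 1 (limma adjusted p = 0.071), with limma without a trend (0.082) and with quantile normalization (0.055), and with the last of these NMD2 passed as lower (0.016).

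Ranked per kilobase in WT, URA1 (4122 ± 158) and URA5 (3716 ± 69.9) were the most abundant of the 10 mRNAs and the gap between them exceeded the spread of each. URA4 (1903 ± 96.4), URA6 (1234 ± 10.3), URA7 (819 ± 10.6), URA8 (788 ± 0.817) and URA2 (652 ± 37.1) followed, each apart from the next by more than their SDs. An SD of 2 libraries is itself uncertain, and the order of URA7 and URA8, which were close, was not tested. URA10 (148 ± 19.2) and PPR1 (137 ± 5.08) did not differ beyond their spread, and URA3 (36.4 ± 3.65) came last. In 9Myc-Swd2 the order had URA6 (2188 ± 148) above URA4 (1575 ± 18.6), and URA2 (904 ± 32.3) above URA8 (862 ± 52.7) and URA7 (808 ± 55.3), where the SDs of neighbours overlap. All these are levels in normalized counts per kilobase of reading frame.

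The 37 further genes of the surrounding pathways, 3 of them on chromosome XI, comprised 9 that were higher, 13 that were lower and 15 that did not pass, with a median log2 fold change of -0.10, beside 22.3% higher, 21.4% lower and a median of 0.00106 over all genes tested. Off chromosome XI, 6 of 34 were higher and 13 lower, beside 18.5% and 22.6% of the other chromosomes' genes. Among the 6 genes that supply carbamoyl phosphate and phosphoribosyl pyrophosphate (PRPP), 2 rose and 2 fell, with a median of -0.06. CPA1, a carbamoyl phosphate synthetase gene of the arginine pathway, rose from 770 ± 24.5 to 1051 ± 27.0. Its log2 fold change of 0.45 ± 0.07 stands beside 0.47 for URA2, whose product also makes carbamoyl phosphate, and it does not lie on chromosome XI. The PRPP synthetase genes were divided. PRS1, on chromosome XI, rose from 3174 ± 29.9 to 5080 ± 135 (log2 fold change 0.68 ± 0.07). PRS3 fell from 2809 ± 20.7 to 1757 ± 55.9 (-0.68 ± 0.07) and PRS2 from 1063 ± 10.3 to 830 ± 36.4 (-0.36 ± 0.07). PRS4 and PRS5 had log2 fold changes of -0.07 ± 0.08 and -0.04 ± 0.07 and did not pass.

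Of the 13 salvage and uptake genes, none on chromosome XI, 4 fell, 3 rose and 6 did not pass, with a median log2 fold change of 0.00354. Among all genes off chromosome XI 22.6% were lower and 18.5% higher, with a median of -0.02. URH1, the uridine nucleosidase gene, fell from 333 ± 3.56 to 183 ± 12.1 (log2 fold change -0.86 ± 0.11). FCY2, the purine and cytosine permease gene, fell from 3384 ± 203 to 2322 ± 7.08 (-0.54 ± 0.07), and FCY1, the cytosine deaminase gene, fell from 3451 ± 115 to 2522 ± 252 (-0.46 ± 0.08). FUR1, which encodes uracil phosphoribosyltransferase, the salvage route from uracil straight to UMP, fell from 1221 ± 53.3 to 1016 ± 32.5 (-0.26 ± 0.07). The call of FUR1 was lost without WT 2 (limma adjusted p = 0.12) and with limma without a trend (0.062). FCY22 and FCY21, relatives of FCY2, rose by 0.60 ± 0.11 and 0.34 ± 0.09 on the log2 scale, FCY21 not passing without WT 2 (0.14) or with limma without a trend (0.066). These relatives can share reads, so their single values are uncertain. PHM8, a nucleotidase gene that also belongs to the phosphate starvation response, rose from 353 ± 2.87 to 863 ± 112. The uridine permease gene FUI1 was at 1334 ± 39.3 and 1314 ± 4.93. The uracil permease gene FUR4 (309 ± 10.7 and 363 ± 34.6) and the uridine kinase gene URK1 (548 ± 18.2 and 628 ± 35.4) did not pass, with adjusted p of 0.082 and 0.066. FUR4 passed without 9Myc-Swd2 1 (0.017) and with the replicate block (0.049), and URK1 without 9Myc-Swd2 2 (0.023), with the replicate block (0.036) and with size factors computed without chromosome XI genes (0.041).

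**Figure D4:**
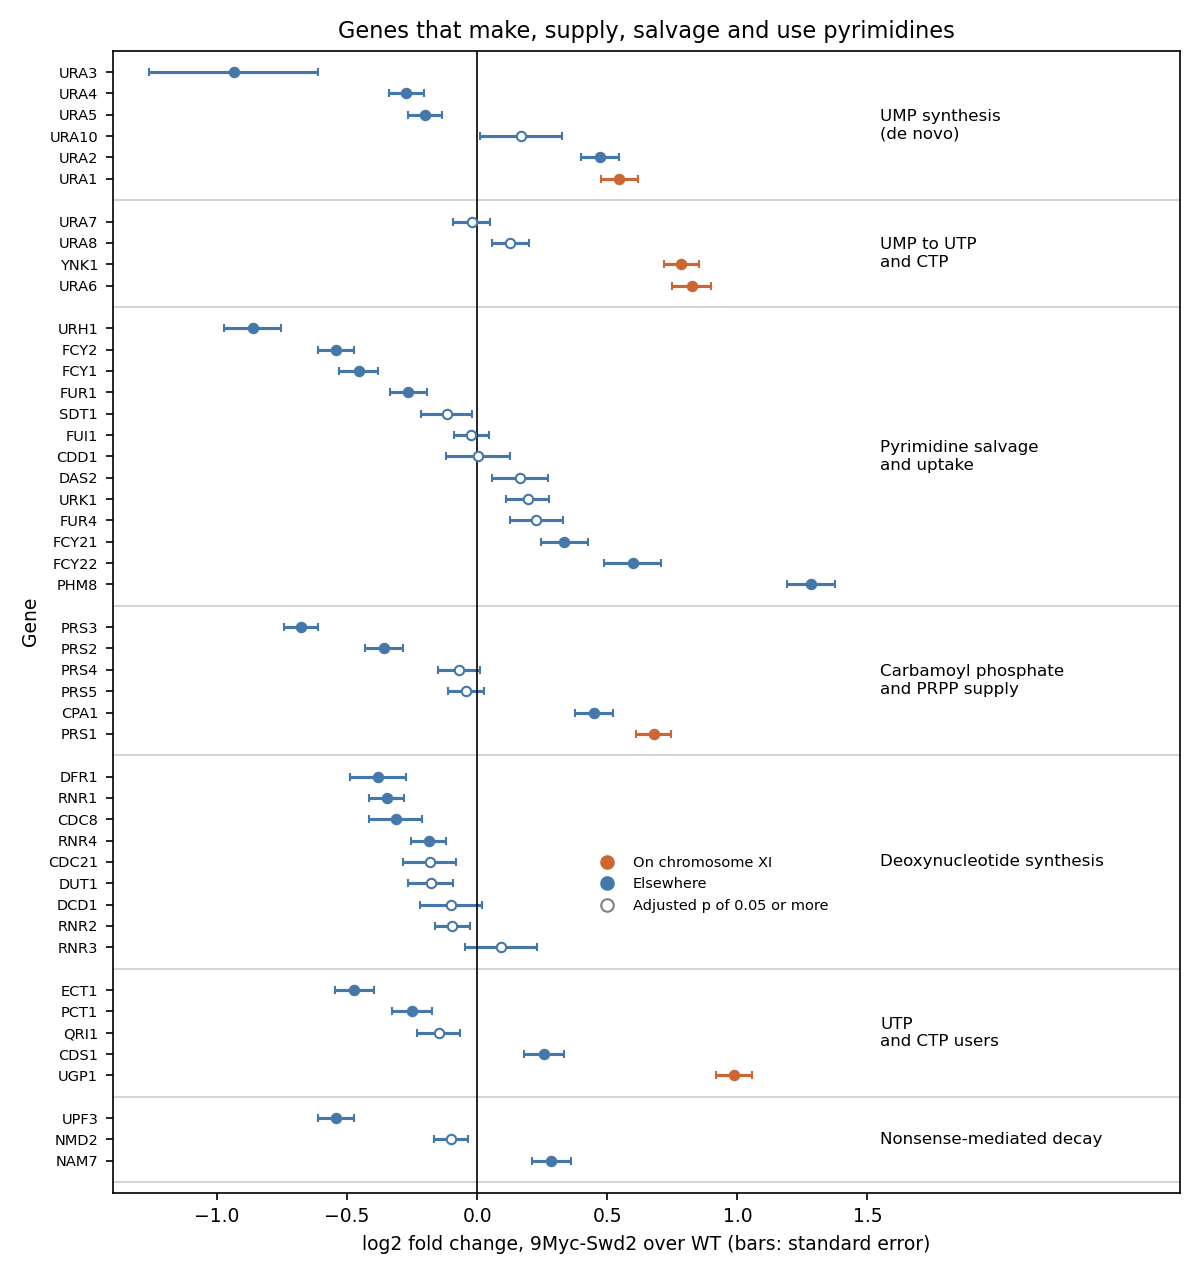
The log2 fold change of each gene with its standard error, grouped by role, with filled points for an adjusted p under 0.05. In the supply group CPA1 and PRS1 lie to the right and PRS2 and PRS3 to the left. In deoxynucleotide synthesis 8 of 9 points lie left of 0, of which 4 are filled. The median of all genes tested off chromosome XI was -0.02.

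Of the 9 genes of deoxynucleotide synthesis, none on chromosome XI, 4 fell and 0 rose by limma-trend, with a median log2 fold change of -0.18, beside 22.6% lower and 18.5% higher among all genes off chromosome XI. With edgeR and DESeq2 0 rose, and by none of these tests did a rise reach an unadjusted p under 0.05. RNR1, the large subunit gene of ribonucleotide reductase, fell from 1488 ± 1.83 to 1169 ± 17.7 (log2 fold change -0.35 ± 0.07), and it passed under all 15 alternatives. DFR1, for dihydrofolate reductase, fell from 335 ± 20.3 to 257 ± 25.4, CDC8, for thymidylate kinase, from 361 ± 24.9 to 290 ± 2.24, and RNR4 from 4466 ± 64.7 to 3924 ± 86.6. The last 3 of these calls were lost with DESeq2 (adjusted p = 0.059 for DFR1, 0.103 for CDC8 and 0.051 for RNR4), in the authors' deposited table (0.060, 0.105 and 0.052) and with limma without a trend (0.059, 0.051 and 0.101). With 1 library left out, DFR1 was lost without WT 2 (limma adjusted p = 0.13), CDC8 without WT 1 (0.21), and RNR4 without WT 1 (0.13), WT 2 (0.22) or 9Myc-Swd2 2 (0.074). RNR4 was also lost with size factors computed without chromosome XI genes (0.062). RNR2 passed as lower with quantile normalization (0.026) and DUT1 with scaling to total reads (0.034), and neither otherwise. The thymidylate synthase gene CDC21 was at 363 ± 6.43 and 320 ± 32.6 (adjusted p = 0.16, and 0.037 without 9Myc-Swd2 1). Of 5 genes whose enzymes use UTP or CTP, 2 rose and 2 fell, with a median of -0.15. UGP1, for UDP-glucose pyrophosphorylase, lies on chromosome XI and rose from 3884 ± 93.5 to 7696 ± 14.4, and CDS1, for CDP-diacylglycerol synthase, had a log2 fold change of 0.26 ± 0.08 and rose. PCT1 and ECT1, which activate phosphocholine and phosphoethanolamine with CTP, fell by 0.25 and 0.47 on the log2 scale. CDS1 and PCT1 were not called without WT 1 (limma adjusted p = 0.13 and 0.16), with limma without a trend (0.059 and 0.074), with DESeq2 (0.065 and 0.074) or in the authors' deposited table (0.066 and 0.075), nor CDS1 with quantile normalization (0.051).

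**Figure D5:**
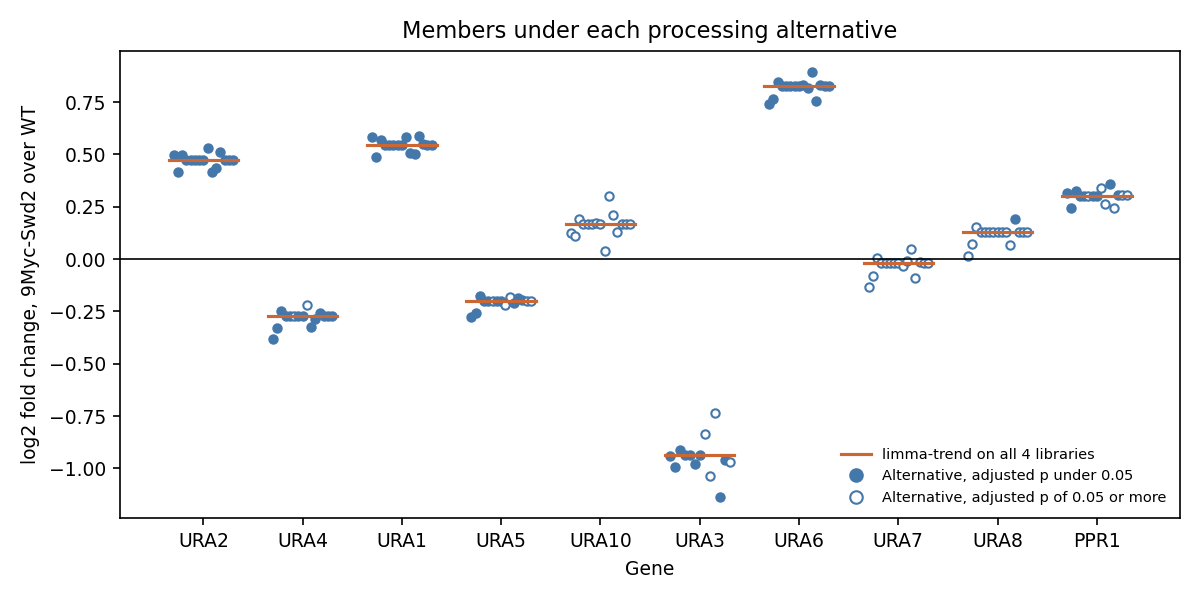
The log2 fold change of each of the 10 genes under the alternatives (points, filled where the adjusted p was under 0.05) beside the value reported here (bar). URA2, URA1 and URA6 are filled throughout, URA10 and URA7 are open throughout, and URA4, URA5, URA3, URA8 and PPR1 hold both kinds of point.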

How the data were processed

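The authors deposited 1 table whose 4 library columns hold a signal, read counts divided by 1 size factor per library. Each column's values are multiples of a single step (100% of them, to within a relative 1e-06), and dividing by the step gave back the reads. Deposited log2 fold changes with standard errors, a score (the Wald statistic) and p-values are the authors' comparison, per the file headers, and the deposited log10 group means were not used. Per the submitters' processing notes, bcl2fastq 1.8.4 and sacCer3 were used. For the aligner, the read counter and the strand setting the entry is: not given in the sources used here. Thus reads of antisense or overlapping genes could not be told apart. No other RefSeq gene overlaps the 10 genes (0 overlaps), but counted genes without a RefSeq match were not checked for overlap.

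limma 3.58.1 (R 4.3.3) was run on log2(value + 1), with group as the only term, and p-values are two-sided. It was tested on simulated data, in which genes were changed at random in direction and chromosome XI was not shifted as a whole. That test therefore does not bear on such a shift. edgeR 4.0.16 and DESeq2 1.42.0 on the recovered reads, the other scalings, filters, a pseudocount of 0.1, a replicate block and each library left out were alternatives. Positions and sequences came from RefSeq R64, the assembly that sacCer3 names, and 89.8% of identifiers matched a locus tag. CDS1 was found by systematic name. The members and lists were chosen with earlier results of these data known. Named genes are the 10 members, list genes past the threshold with up to 4 others per list, the 3 nearest genes on each side of a member, SWD2, LEU2 and mating-type markers. 1 further gene is not reported here.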

Additional observations from a re-analysis of the deposited data

How the results depend on the processing

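Of 148 values of the 10 genes under the alternatives, 128 kept their direction and their side of the threshold, 17 kept the direction but were no longer past it, 1 passed newly and 2 changed sign. Over all genes the number lower was 1393, but 882 with limma without a trend, and with 1 library left out it ranged from 795 (without WT 2) to 1438 (without 9Myc-Swd2 2). The number of lower genes among the 10 was 3, but 1 with limma without a trend, with DESeq2 and in the authors' deposited comparison, and 0 to 3 with 1 library left out. Lower genes among the 37 others were 13, but 8 with limma without a trend, 9 with DESeq2 and 9 in the authors' deposited comparison. With quantile normalization they were 15. Changes of sign were of log2 fold changes near 0 that did not pass in either case. With size factors computed without chromosome XI genes URA7 was at 0.0028 and FUI1 at 0.0018, and with scaling to total reads CDD1 was at -0.055. With 1 library left out URA7 ranged from -0.091 to 0.049, SDT1 from -0.23 to 0.0012, FUI1 from -0.052 to 0.0085, CDD1 from -0.082 to 0.089, PRS5 from -0.12 to 0.035 and RNR3 from -0.096 to 0.28. The cause was not tested. DESeq2 gave no adjusted p for URA3, and the filter at 5 CPM removed that gene. The replicate numbers share only a number (correlation of same-numbered deviations 0.04 across genes, 2 pairs). With the replicate block 4 of the 10 genes were higher and 3 lower, as without it, and the block moved the calls over all genes to 1619 higher and 1566 lower. URA3 rests on 12 to 33 reads per library, which limits its precision.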

Other observations

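The motif CGGNNNNNNCCG lay in the 300 bases before the start codon of 74 further genes beside URA1, URA3 and URA4. Of these 74, 19 were higher in 9Myc-Swd2 and 26 lower by limma-trend at an adjusted p under 0.05, with a median log2 fold change of -0.05, beside 22.3% higher, 21.4% lower and a median of 0.00106 over all genes tested.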
